A study of Mus musculus with 4 samples.

Results

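The genes described here are 10 that move or sense calcium at the endoplasmic reticulum (ER) and neighbouring membranes of NIH3T3 cells: the pumps Atp2a2, Atp2a3, Atp2b1 and Atp2c1, the inositol trisphosphate (IP3) receptors Itpr1, Itpr2 and Itpr3, the sensors Stim1 and Stim2, and the channel Orai1. They were chosen by the measured fall of Atp2a2 in cells given an siRNA against Timp1, so the values of Atp2a2 in that comparison are a description and support nothing by themselves. Members were found by gene name: all 10 are among the 37074 gene names on the array, with 28 of its 56605 non-control probes, and 20 of the 28 were bright enough to be tested.

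NIH3T3 is an established mouse fibroblast line. All cells were held in medium with 2% serum and transfected with apatite nanoparticles (sCA in the labels) that carried either a control siRNA (siControl, 2 arrays) or an siRNA against Timp1 (siTIMP1, 2 arrays), so the carrier and the transfection are common to both groups. Cy3-labelled RNA was read on 1-colour Agilent arrays with probes of 60 bases. Separate cultures are not named in the labels for the arrays of a group, and p-values therefore reflect the spread among these arrays alone, which may be technical.

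Cells keep cytosolic calcium low by pumping it into the ER, the Golgi or out of the cell. A signal that makes IP3 opens the IP3 receptors of the ER, calcium leaves the store, and the fall inside the ER is sensed by STIM proteins, which then open ORAI channels in the plasma membrane so that calcium enters and the store can be refilled. SERCA pumps, encoded by the Atp2a genes, do the refilling, and in fibroblasts the widely expressed Atp2a2 is the usual SERCA gene.

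Of the members' probes, 3 are shown by their letters. The first is the Atp2a2 probe that the array files assign to 2 transcript variants, so it reads either of these. The second is a dim Itpr2 probe that was measurable in siControl alone, and the third is the Orai1 probe, whose groups overlapped. Each is written 5′ to 3′ in lower case with no part marked, and each holds 2 reading frames without a stop codon.
Atp2a2, transcript position 2567, chr5:122910660-122910719 (mm9, minus strand): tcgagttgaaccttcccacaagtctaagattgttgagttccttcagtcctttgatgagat
Itpr2, transcript position 2839, chr6:146321651-146321710 (mm9, minus strand): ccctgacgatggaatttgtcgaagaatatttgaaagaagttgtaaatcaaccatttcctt
Orai1, transcript position 730, chr5:123479321-123479380 (mm9, plus strand): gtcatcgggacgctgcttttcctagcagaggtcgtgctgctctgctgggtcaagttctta

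The targeted gene was low where the labels say it should be: Timp1 fell by 5.22 on the log2 scale (SE 0.158, limma adjusted p = 0.0105). All 4 arrays lay on 1 slide with each group at its own positions, so slide position and group cannot be told apart. The share of spots well above background ran from 45.9% (siTIMP1 replicate 2) to 52.1%, no spot was saturated, and the number of arrays limits the precision. All 10 fibroblast markers examined were well above background on every array, with summed processed signals of 363960 and 394398 for siControl and 399387 and 400382 for siTIMP1. Single markers were lower in siTIMP1 without overlap and without a call: the fibroblast markers Pdgfra (-0.88, limma adjusted p = 0.0618) and Lum (-0.37, limma adjusted p = 0.103), and the leukocyte markers Cd3e (-0.54) and Csf1r (-0.29). The fibroblast marker Col3a1 (0.40) and the muscle marker Tnnt2 (0.21) were higher without overlap, also uncalled. Of all tested probes, 23.2% were lower and 29.8% higher in siTIMP1 without overlap. Of 12 muscle markers, Ryr1 and Tnnt2 were well above background on every array and Des was tested besides, with sums of 2310 and 2813 for siControl and 2966 and 3055 for siTIMP1, and the other 9, Myog, Myod1, Ckm and Actn2 among them, were too dim to test. Leukocyte markers had 4 of 6 well above background (Ptprc, Cd3e, Cd68 and Csf1r), with sums of 1446 to 1488 and 1291 to 1452. Epithelial markers had 2 of 6 (Cldn7 and Krt14), with sums of 76.3 to 87.4 and 77.6 to 79.9. Endothelial markers had 1 of 6 (Vwf), with a highest sum of 42.2 in siControl and of 41.2 in siTIMP1. The part of other cell types in the results below was not tested.

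Levels below are log2 signals relative to the array's 75th percentile, and differences are siTIMP1 minus siControl on that scale, with the standard error (SE) and 95% interval of a limma fit over all 26015 tested probes. Tested probes were those well above background throughout siControl, throughout siTIMP1 or in both, and a probe was called at an adjusted p under 0.05, adjusted over all of them. Levels of different probes are not comparable with each other. In bulk RNA, fewer cells with a transcript and less transcript per cell cannot be told apart.

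**Figure D1:**
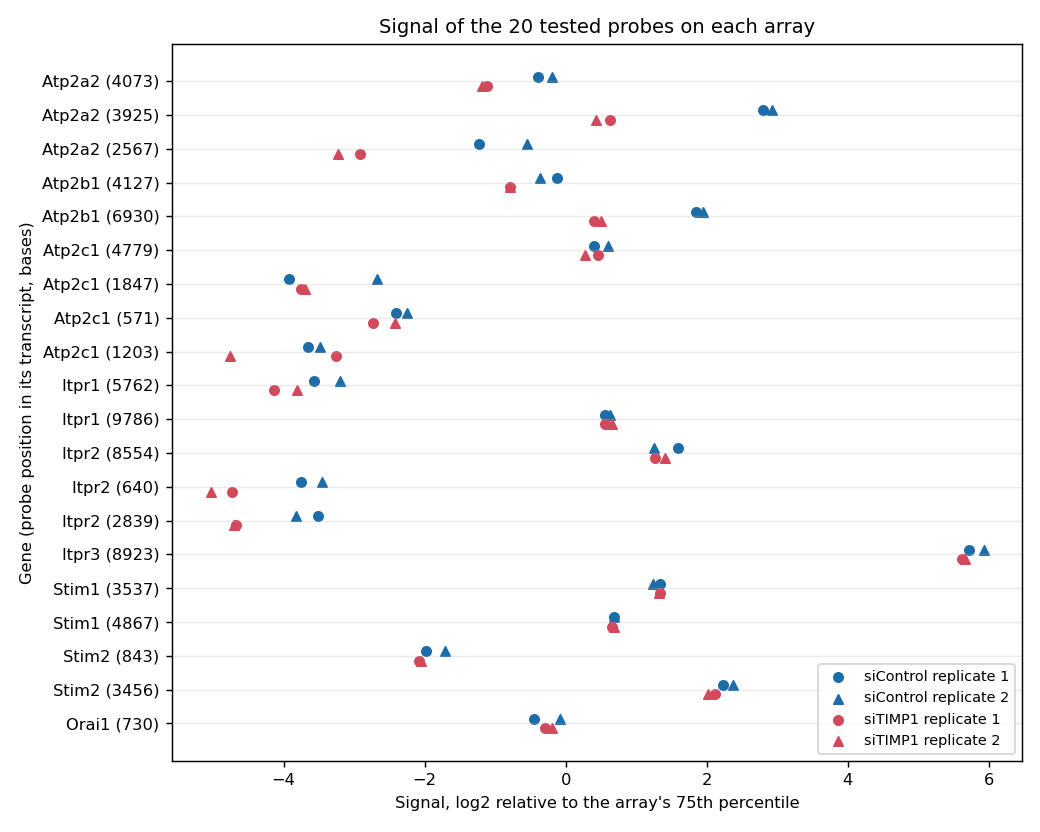
Signal of each of the 20 tested probes on the 4 arrays, as log2 relative to the array's 75th percentile (horizontal axis), with the gene and the probe's position in its transcript on the vertical axis. Circles are replicate 1 and triangles replicate 2 of siControl (blue) and siTIMP1 (red), and the arrays of the 2 groups lie farthest apart for Atp2a2 at positions 3925 and 2567 and for Atp2b1 at position 6930.

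Atp2a2 encodes SERCA2, the pump that loads the ER with calcium, and its transcripts are spliced into variants with different 3′ ends. All of its 3 probes were lower in siTIMP1, and the probes differed in how much. The probe shared by the variants had levels of -1.23 and -0.55 on the siControl arrays and of -2.91 and -3.23 on the siTIMP1 arrays. The siTIMP1 arrays were both below the lower siControl array by at least 1.68, and the spread was wider within siControl (SD 0.481) than within siTIMP1 (SD 0.225). Its difference was -2.18 (SE 0.273, 95% interval -2.88 to -1.48), which put siTIMP1 at 22.0% of siControl.

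The probe that the files assign to transcript variant 1 of Atp2a2 (chr5:122906850-122906909, mm9, transcript position 3925) had processed signals of 1301 and 1386 in siControl and of 294 and 255 in siTIMP1. In log2 levels these were 2.81 and 2.93 against 0.63 and 0.42. Replicates lay close together and the gap between the groups was 2.17. The difference was -2.34 (SE 0.105, 95% interval -2.61 to -2.07), which leaves 19.8% of the control level and was the 81st lowest of the 26015 probes.

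The probe assigned to transcript variant 2 (chr5:122903704-122903763, mm9, position 4073), and also to a further transcript, was the farthest downstream on the chromosome's minus strand. It had levels of -0.40 and -0.19 in siControl and of -1.12 and -1.19 in siTIMP1. The groups did not overlap here either, but the difference of -0.86 (SE 0.124, 95% interval -1.18 to -0.55) was smaller and left 55.0% of the control level. Its interval did not meet those of the other Atp2a2 probes, and the difference between probes was not tested. Of the Atp2a2 probes, the variant 1 probe was called. With normexp background correction, which here added an offset of 50 to the signals, the shared probe had a difference of -0.95. The variant 2 probe then had -0.55 and the variant 1 probe kept -2.10. Such an offset by itself shrinks the differences of dim probes, so the parts of the offset and of the correction cannot be told apart.

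**Figure D2:**
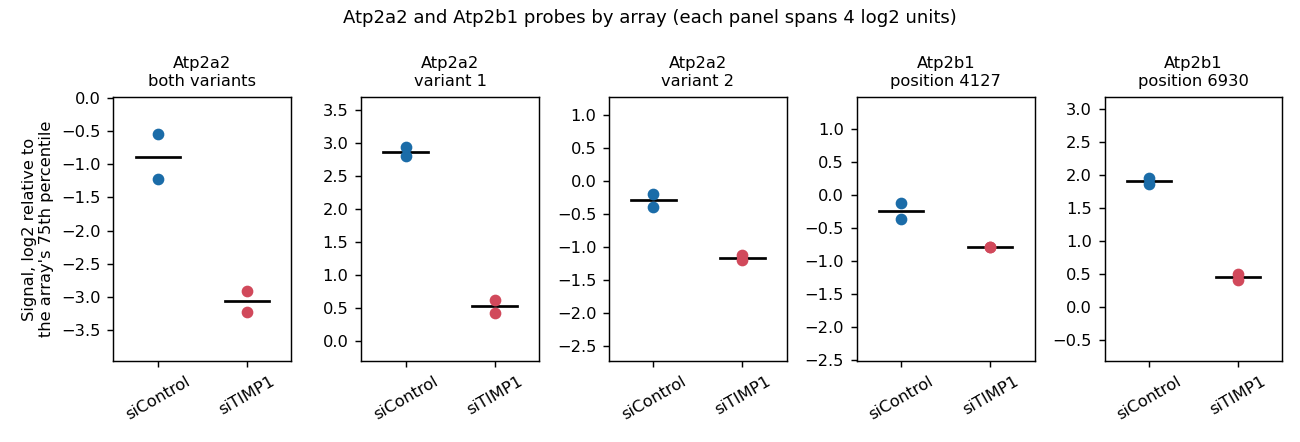
Signal on each array (log2 relative to the array's 75th percentile, vertical axis) of the 3 Atp2a2 probes and the 2 Atp2b1 probes, for siControl (blue) and siTIMP1 (red), with a line at each group's mean of 2 arrays. Each panel spans the same 4 log2 units around its own centre, and the red points lie below the blue points in every panel, by the most for Atp2a2 variant 1.

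Atp2b1 encodes PMCA1, the plasma membrane pump that removes calcium from the cell, and both of its probes were lower in siTIMP1, with 1 called. At its probe at transcript position 6930 (chr10:98488578-98488637, mm9) the siControl arrays read 1.85 and 1.95 and the siTIMP1 arrays 0.41 and 0.50. The groups were 1.35 apart at their nearest, and the SD within a group was 0.0710 for siControl and 0.0688 for siTIMP1. The difference was -1.45, with an SE of 0.0897 and an interval from -1.68 to -1.22, and limma gave an adjusted p of 0.0223. This probe stood at 36.6% of its siControl level. The other Atp2b1 probe (chr10:98485775-98485834, mm9, position 4127) had levels of -0.12 and -0.36 in siControl and of -0.78 and -0.79 in siTIMP1. Its groups did not overlap, and its difference of -0.55 (SE 0.123, limma adjusted p = 0.142) was not called. These p-values describe the fit: the members were named with this comparison known, so they are not independent evidence.

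Atp2c1 encodes SPCA1, the calcium and manganese pump of the Golgi. Its probe at position 4779 read 0.41 and 0.60 in siControl and 0.47 and 0.28 in siTIMP1, and the groups overlapped, with a difference of -0.13 (95% interval -0.44 to 0.18, limma adjusted p = 0.579). The other 3 tested Atp2c1 probes had differences from -0.45 to -0.25, none called. Of these, the probe at position 571 did not overlap, by a margin of 0.009, and the probe at position 1847 rested on siControl arrays that read -3.93 and -2.67. The probe at position 1203, with the difference of -0.45, was not well above background on siTIMP1 replicate 2. The fifth Atp2c1 probe was not well above background on any array. Atp2a3, the SERCA3 gene, was not well above background on any array at its single probe.

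Among the IP3 receptors, Itpr3 was measured by 1 probe (chr17:27259102-27259161, mm9), which read 5.72 and 5.93 in siControl and 5.62 and 5.67 in siTIMP1. The groups were 0.052 apart, less than the 0.148 SD of the siControl pair, and the difference of -0.18 (SE 0.0817, 95% interval -0.39 to 0.03, limma adjusted p = 0.318) was not called. Itpr1 at position 9786 read 0.56 and 0.63 in siControl and 0.56 and 0.66 in siTIMP1. These values overlap throughout, and the interval of the difference ran from -0.22 to 0.25. A dimmer Itpr1 probe, at position 5762, had a difference of -0.59 (SE 0.288, limma adjusted p = 0.342) with groups 0.255 apart. That difference was -0.14 with normexp background correction and its offset of 50. On siTIMP1 replicate 2 this dimmer probe was not well above background. The remaining 2 Itpr1 probes were not tested.

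Itpr2 gave unlike values at its bright and dim probes. At position 8554 (chr6:146060030-146060089, mm9) it read 1.60 and 1.25 in siControl and 1.27 and 1.40 in siTIMP1, with overlapping groups and an interval from -0.44 to 0.27. The probe at position 2839, whose letters are given above, read -3.51 and -3.82 in siControl and -4.67 and -4.71 in siTIMP1, and the siTIMP1 arrays were not well above background. Set against the floor described below, it was 1.46-fold lower in siTIMP1, with an uncalled fitted difference of -1.03 (limma adjusted p = 0.204). A probe for another annotated Itpr2 transcript (chr6:146069177-146069236, mm9, position 640) was likewise well above background in siControl alone. It read -3.75 and -3.46 against -4.74 and -5.03, and was 1.53-fold lower when set against the same floor. Each of these folds sets the siControl mean against a floor of -4.21. The floor averages over siTIMP1 the dimmest level still well above background, or the probe's own where that is higher. It is not a detection limit, since Itpr1 at position 5762 read -3.82 on siTIMP1 replicate 2 without being well above background. The folds are therefore not strict minima. With normexp background correction and its offset of 50, which shrinks differences of dim probes, the fitted differences of these 2 were -0.16 and -0.19. The last 2 Itpr2 probes were not well above background on any array.

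STIM1 and STIM2 are the ER membrane proteins that sense store calcium, and ORAI1 forms the channel they open. Stim1 at position 3537 read 1.34 and 1.25 in siControl and 1.34 and 1.33 in siTIMP1, and at position 4867 it read 0.69 and 0.69 against 0.66 and 0.69. Groups overlapped at both probes, and the intervals of the difference, -0.17 to 0.25 and -0.23 to 0.20, end well above the differences of the called Atp2a2 and Atp2b1 probes. Of the Stim1 probes too dim to test, that at position 1732 was at background on 3 arrays and well above it on siTIMP1 replicate 2, at a processed signal of 22.9. Stim2 at position 3456 read 2.24 and 2.37 in siControl and 2.12 and 2.02 in siTIMP1, and at position 843 it read -1.99 and -1.70 against -2.08 and -2.05. Groups did not overlap at either Stim2 probe, but the differences of -0.23 (SE 0.0874, limma adjusted p = 0.259) and -0.22 (SE 0.163, limma adjusted p = 0.497) were not called. Orai1 read -0.44 and -0.08 in siControl and -0.29 and -0.20 in siTIMP1, so that both siTIMP1 arrays lay between the siControl arrays, and the interval of its difference was -0.37 to 0.41.

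**Figure D3:**
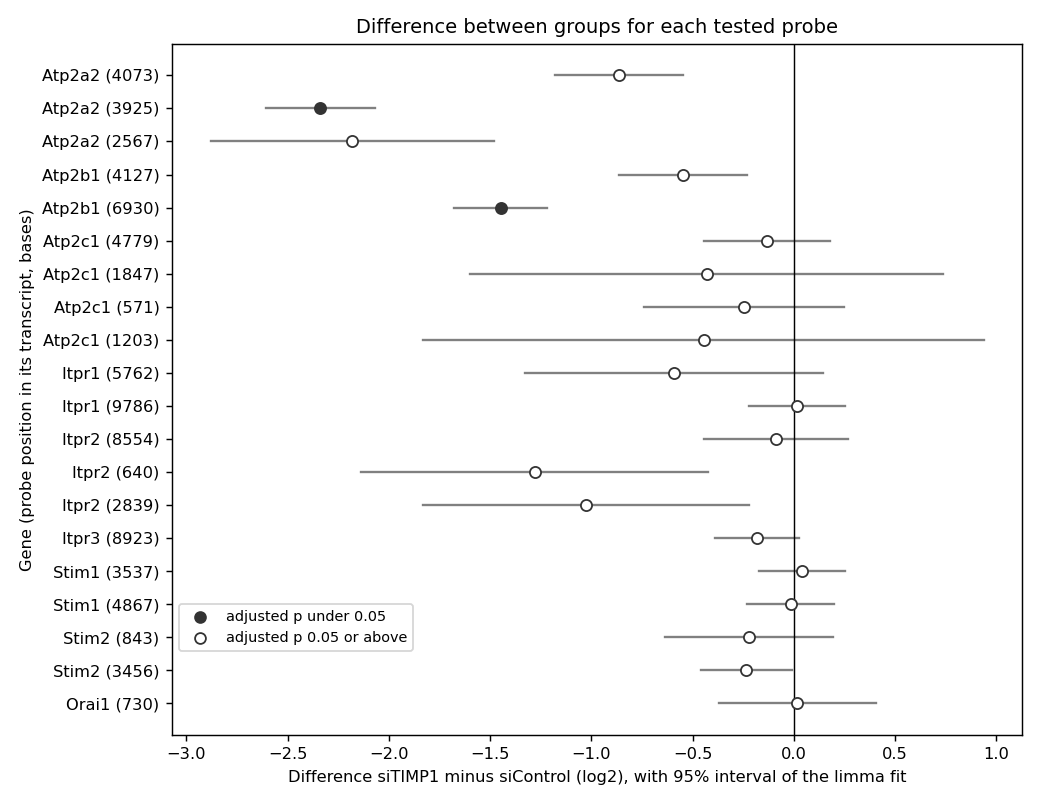
Difference siTIMP1 minus siControl (log2, horizontal axis) of the 20 tested probes with the 95% interval of the limma fit, by gene and probe position in its transcript (vertical axis). Filled points were called; they are Atp2a2 at position 3925 (-2.34) and Atp2b1 at position 6930 (-1.45), and the intervals of the Stim1, Orai1 and Itpr3 probes include 0.

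Across the members, 2 of the 20 tested probes were called lower and none higher by limma, beside 0.627% of all tested probes called lower and 0.0615% called higher. At an unadjusted p under 0.05, also counted with limma, 8 member probes were lower and none higher, beside 7.70% and 10.6% of all tested probes. The 8 include all 3 Atp2a2 probes and the 2 Itpr2 probes not well above background in siTIMP1. The groups did not overlap, with siTIMP1 lower, at 12 of the 20 probes, beside 23.2% of all tested probes, and with siTIMP1 higher at none, beside 29.8%. Since the rule used this comparison through Atp2a2, and probes of 1 gene share their target, nothing is read from these counts. Averaged over its tested probes, Atp2a2 had a difference of -1.79 (SE 0.155) and Atp2b1 one of -0.998 (SE 0.0871). The same average was -0.80 (SE 0.152) for Itpr2, which includes its 2 probes not well above background in siTIMP1. It was -0.31 for Atp2c1, -0.29 for Itpr1, -0.23 for Stim2 and 0.01 for Stim1. At their single probes Itpr3 had -0.18 and Orai1 had 0.02. The GC content of the tested member probes had a median of 37.5%, against 41.7% for all non-control probes, tested or not. The Atp2a2 probes had 41.7% at position 2567, 35.0% at position 3925 (called) and 35.0% at position 4073. The Atp2b1 probes had 36.7% at position 4127 and 40.0% at position 6930 (called). The part of GC content in the differences was not tested.

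Dropping either siTIMP1 array, or fitting limma with no variance trend, left no call among the members or on the whole array, where 2920 probes (replicate 1 dropped), 2692 (replicate 2 dropped) and 4216 (no trend) passed 0.05 unadjusted. Dropping siControl replicate 1 gave 4 member probes called lower, beside 3.23% of all tested probes, and dropping siControl replicate 2 gave 3, beside 1.13%. The called Atp2a2 probe ranged from -2.44 to -2.10 and the called Atp2b1 probe from -1.50 to -1.27 over all alternatives tried.

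**Figure D4:**
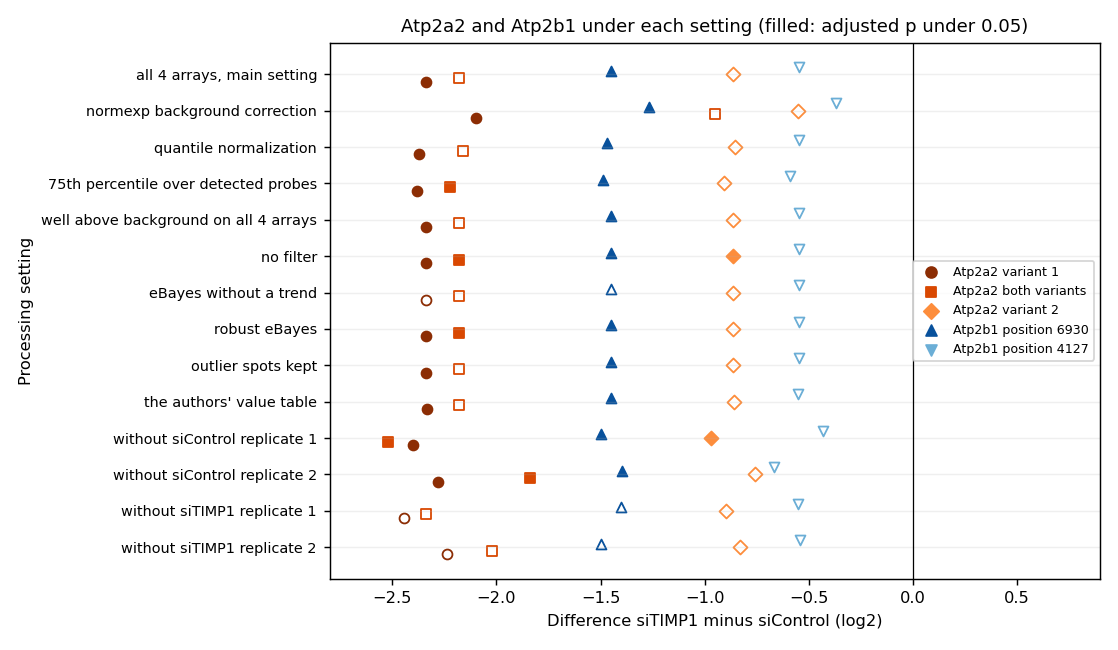
Difference siTIMP1 minus siControl (log2, horizontal axis) of the Atp2a2 and Atp2b1 probes under each processing setting (vertical axis), filled where the adjusted p was under 0.05. Every point lies below 0, and the Atp2a2 probe shared by both variants moves the most, from -2.52 to -0.95 (normexp with an offset of 50).

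The genes whose profile over the 4 arrays was nearest to that of the Atp2a2 variant 1 probe, by Euclidean distance of log2 levels after each probe's mean was taken off, were Olfr1368 (distance 0.205), Aldh5a1 (0.491), Fam49b (0.526), Itgb8 (0.549) and Mreg (0.572). Of these, all but Itgb8 were called, beside 0.703% of all genes called lower. They were picked for likeness to a profile that falls in siTIMP1, so their falls and calls follow from that choice and describe it only. Olfr1368, an olfactory receptor gene, read 1.35 and 1.33 in siControl and -0.83 and -0.88 in siTIMP1. Aldh5a1, a mitochondrial aldehyde dehydrogenase gene, and Itgb8, an integrin subunit gene, were not well above background in siTIMP1, so their distances rest on levels near background. Set against the floor used for the dim Itpr2 probes, they were 3.17-fold and 1.68-fold lower, beside 5.06-fold for the measured levels of the Atp2a2 probe.

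The wider calcium machinery was followed with 6 lists of other genes, in which each gene stood for its brightest tested probe. Of 127 genes, 103 were tested, and limma called none in either direction, beside 0.703% of all 17647 genes called lower and 0.0850% called higher. At an unadjusted p under 0.05, 8 were lower and 17 higher, beside 7.99% and 11.9% of all genes. The median difference over the 103 genes was 0.07, against 0.02 over all genes. Without siControl replicate 1, limma called 4 of them higher, Itprip, Hax1, Rcan1 and Hspa9, beside 1.86% of all tested probes called higher in that fit.

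Other calcium pumps, exchangers and pump regulators had 11 of 20 genes tested and a median difference of -0.01. Atp2a1, which encodes the SERCA of fast skeletal muscle, was well above background in siControl (-3.32 and -2.73) and not in siTIMP1 (-6.16 and -4.84). Set against the floor used for the dim Itpr2 probes, it was 2.29-fold lower, and its limma adjusted p was 0.141. Tmx1, a thioredoxin-like protein of the ER that acts on SERCA, had a difference of -0.60 (limma adjusted p = 0.246), and Vmp1, an ER protein of autophagy that acts on SERCA, had 0.20. Bsg, a subunit of plasma membrane calcium pumps, had 0.19. Pln, which encodes the SERCA inhibitor phospholamban, was not tested.

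Release and leak channels of the ER and regulators of IP3 receptors had 17 of 20 genes tested and a median of 0.12. Bcl2, an apoptosis inhibitor that binds IP3 receptors, read 0.12 and 0.25 in siControl and -0.21 and -0.48 in siTIMP1, a difference of -0.53 (limma adjusted p = 0.161). The translocon subunit Sec61a1, Itprid2 and Itprip, which binds IP3 receptors, had differences of 0.21, 0.27 and 0.24. Store-operated entry and membrane contact genes had 12 of 18 tested and a median of -0.08. Saraf, which switches store-operated entry off, read 5.27 and 5.29 in siControl and 5.54 and 5.52 in siTIMP1, a difference of 0.24 (limma adjusted p = 0.119) with no overlap. The channel genes Orai2 and Orai3 had 0.32 and -0.13, and Esyt2, a tether of the ER to the plasma membrane, had -0.18.

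Calcium-binding proteins of the ER lumen had 16 of 18 genes tested and a median of 0.11, and their differences ran from -0.26 to 0.25. Hspa5, the chaperone BiP, read 7.23 and 7.25 in siControl and 7.53 and 7.45 in siTIMP1, a difference of 0.25 (limma adjusted p = 0.105), and Rcn1, P4hb and Sdf4 had 0.19, 0.19 and 0.21. Mitochondrial calcium transport genes had all 15 tested and a median of 0.13, with Hspa9, the mitochondrial HSP70, at 0.41 (limma adjusted p = 0.0944) and Mcur1, a regulator of the calcium uniporter, at -0.40. The outer membrane channel Vdac1 had -0.18. The phospholipase C, calmodulin and calcineurin list had 32 of 36 tested and a median of 0.00. There Inpp5a and Itpkc, enzymes that remove IP3, had differences of 0.34 and 0.45, Camk2d had 0.32 and the calcineurin subunit Ppp3r1 had -0.24.

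**Figure D5:**
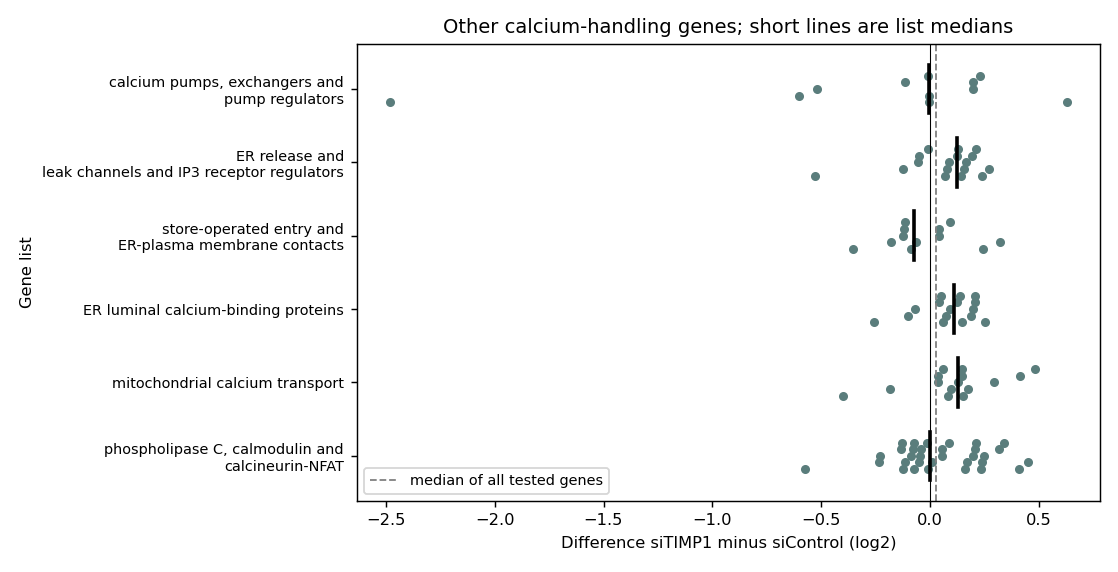
Difference siTIMP1 minus siControl (log2, horizontal axis) of each tested gene of the 6 other calcium lists (vertical axis), with a short line at each list's median and a dashed line at the median of all tested genes, 0.02. List medians lie between -0.08 and 0.13, and the lowest point, Atp2a1, is a fitted value of a probe not well above background in siTIMP1.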

How the data were processed

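Gene expression was measured on 4 one-colour arrays. The authors deposited spot intensity values from Feature Extraction 11.5.1.1 (Agilent), as the submitters' processing notes and file headers name it. Per the file headers, processed intensity is background-subtracted and detrended within each array, unscaled between arrays, and probe coordinates are mm9. The authors' deposited log2 table followed log2 of the processed intensity less 1 constant per array (6.90 to 6.96), with medians of -3.94 and -3.86 (siControl columns) and -3.99 and -3.91 (siTIMP1 columns).

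Here log2 processed intensity was scaled by subtracting each array's 75th percentile (control spots excluded), outlier spots (136 to 250 per array) were left out and spots of 1 probe averaged. Groups, taken from sample titles and with replicates numbered in accession order, were set against each other in R 4.3.3 by limma 3.58.1 (eBayes with a trend, Benjamini-Hochberg adjustment over 26015 probes). Named genes are Timp1, all members, called genes or the 4 of smallest p per list (tested genes), and 5 profile neighbours; 1 gene that this rule names is not reported here. Gene names are those of the array files, except Itprid2, which they call Ssfa2. Members and lists were chosen with earlier results of these data known.

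Alternatives were background correction (normexp with an offset of 50), scaling, filters, variance models, outlier spots and the authors' table. The threshold, the mean of a gene's probes and leaving out each array were also tried. On simulated data for this comparison (26015 probes), 34% of probes changed 1.5-fold, 44% changed 2-fold, 92% changed 4-fold and 98% changed 8-fold were recovered, with 18 false calls. The simulated noise was normal, independent between probes and had the variances of the fit with a trend. These shares therefore hold under the model of that fit only. Figures were drawn with matplotlib 3.10.9. Exon, coding and UTR positions of probes were not analysed here.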

Additional observations from a re-analysis of the deposited data

How the results depend on the processing

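The count of 2 member probes called lower became 4 with no filter, 0 in limma without a trend and 4 at an adjusted p under 0.1. It became 3 with the 75th percentile taken over detected probes and 3 with robust eBayes, and it also changed when 1 array was left out. Member probes called higher stayed at 0 throughout. Other calcium genes called higher, 0 on all arrays, numbered 1 at an adjusted p under 0.1 (Hspa9) and 0 to 4 when 1 array was left out, and those called lower stayed at 0. Timp1 had -5.22 in limma without a trend, where it was not called, and -5.41 to -5.04 when 1 array was left out, with no call without either siTIMP1 array (adjusted p = 0.137 and 0.184). Leaving out an array gives fewer samples and leaves 1 array in its group, so the spread then comes from the other group alone. The cause of the other changes was not tested. Over all array probes, the 163 called lower and 16 called higher became 334 and 124 with no filter, 249 and 61 with robust eBayes, 384 and 181 at an adjusted p under 0.1 and 840 and 483 without siControl replicate 1. Among single member probes, 261 alternative values kept their call or lack of one, 9 gained a call and 6 lost one, and no called value changed sign. No paired analysis was possible because replicate numbers here come from accession order and pair nothing. With 1 slide, no slide block exists to fit. Probes near background limit what can be seen of Atp2a3 and of the dim Itpr1, Itpr2 and Stim1 probes.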
